A study of Mus musculus with 6 samples.

Results

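Cells set their volume largely by moving chloride with water, and 2 gene families carry much of that traffic. The volume-regulated anion channel opens when a cell swells and lets chloride and organic osmolytes out. It is built from LRRC8 proteins, of which LRRC8A is needed in every working channel and is joined by LRRC8B, LRRC8C, LRRC8D or LRRC8E. The SLC12 cotransporters couple chloride to cations: NKCC1, encoded by Slc12a2, brings sodium, potassium and chloride in, and the potassium-chloride cotransporters KCC1 and KCC4, encoded by Slc12a4 and Slc12a7, carry potassium and chloride out. SLC12A9 is an orphan member of the same family. In mice, loss of LRRC8A in germ cells and loss of NKCC1 are both known to make males infertile. The genes described here were taken by name from the deposited table, and 9 of 9 were found among its 55711 entries: Lrrc8a, Lrrc8b, Lrrc8c, Lrrc8d, Lrrc8e, Slc12a2, Slc12a4, Slc12a7 and Slc12a9.

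The study measured testis RNA by sequencing in 3 libraries labelled Tmc7 knockout and 3 labelled Tmc7 heterozygote, all on the C57BL6 strain. Its controls thus carry a mutant Tmc7 allele themselves, and its title concerns the volume of elongated spermatids. The labels give neither the allele nor the age of the mice, and nothing in them ties each library to its own mouse. The p-values here therefore describe the spread between samples alone, and part of that spread may be technical. Values are FPKM (fragments per kilobase of exon, scaled by a size for each library). They correspond to totals of 17059486 to 19343479 reads in a library. The size used was not this total: library 3 labelled knockout had 18140921 reads and an implied size of 19497384. Tmc7 itself was at 43.8, 41.9 and 35.1 FPKM in the labelled knockout libraries and at 39.1, 37.7 and 37.2 FPKM in the heterozygous libraries (exact two-sided permutation test p = 0.4, limma adjusted p = 0.885). The transcript therefore does not check the labels, and every direction given for the labelled knockout libraries rests on the labels alone. Of 11 marker lists for testis, blood and epididymal cells, the germ cell, Sertoli and Leydig lists had 0 markers at 0 in all libraries. The epididymal list had Lcn5 at 0, and 96.1% of its sum came from 1 gene, Cst8.

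Among these 9 genes Lrrc8b stood far above the rest. It (ENSMUSG00000070639) occupies chromosome 5, plus strand, bases 105415775 to 105490074 (GRCm38), and encodes an 803-residue protein, an accessory LRRC8 subunit. None (0%) of its 31-base words occur in transcripts of other genes. Lrrc8b averaged 133 FPKM over the 6 libraries, rank 365 of the 37384 entries above 0, with 11326 to 19311 reads behind each value. Next in line, on the same strand of chromosome 5, come Lrrc8c (ENSMUSG00000054720) from 105519388 to 105613018 and Lrrc8d (ENSMUSG00000046079) from 105699969 to 105832436. Between Lrrc8b and Lrrc8c lie 29313 bases and between Lrrc8c and Lrrc8d 86950 bases, with 0 protein-coding entries in either gap. Lrrc8c averaged 2.99 FPKM and Lrrc8d 1.58 FPKM. Neighbouring subunit genes in the same orientation thus had very unequal levels.

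The sequences just before the start sites of the highest subunit gene, of Lrrc8d in the same cluster and of Lrrc8e, the lowest of the family, are shown for that contrast. They are the 120 bases upstream of the first RefSeq start in GRCm38.p6, on the gene's own strand (windows were found for 5 of 5 LRRC8 genes, and the 3 that hold no annotated transcript base are shown). Capitals mark CCAAT on either strand.
Lrrc8b, chr5:105415655-105415774: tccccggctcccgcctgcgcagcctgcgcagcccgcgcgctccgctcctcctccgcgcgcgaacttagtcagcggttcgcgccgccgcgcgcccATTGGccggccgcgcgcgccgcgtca
Lrrc8d, chr5:105699849-105699968: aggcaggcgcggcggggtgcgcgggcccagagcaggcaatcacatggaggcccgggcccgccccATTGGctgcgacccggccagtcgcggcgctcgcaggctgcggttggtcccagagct
Lrrc8e, chr8:4226707-4226826: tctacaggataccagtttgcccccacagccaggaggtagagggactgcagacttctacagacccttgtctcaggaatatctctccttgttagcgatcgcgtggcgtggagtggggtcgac
The Lrrc8b window holds 26 CG pairs, more than 99.8% of the 27025 windows of this length, whose median is 3. The Lrrc8d window holds 14, more than 88.2% of windows, and the Lrrc8e window 5, more than 57.4%. Among the windows not shown, that of Lrrc8c holds 16 (more than 92.5%) and that of Lrrc8a 13 (more than 85.6%). CCAAT stands once in the Lrrc8b and Lrrc8d windows, in reverse, as it does on either strand in 22.1% of all windows. The words TGACGTCA and TATAAA, searched on both strands, were not found in these 3 windows and occur in 1.31% and 6.76% of all windows. GGGCGG, found in reverse in the Lrrc8d window, occurs in 26.9%. CCAAT is thus shared by a high and a low gene. Windows rich in CG pairs also stand before the low genes Lrrc8a, Lrrc8c and Lrrc8d, and a link of CG pairs to level was not tested.

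**Figure D1:**
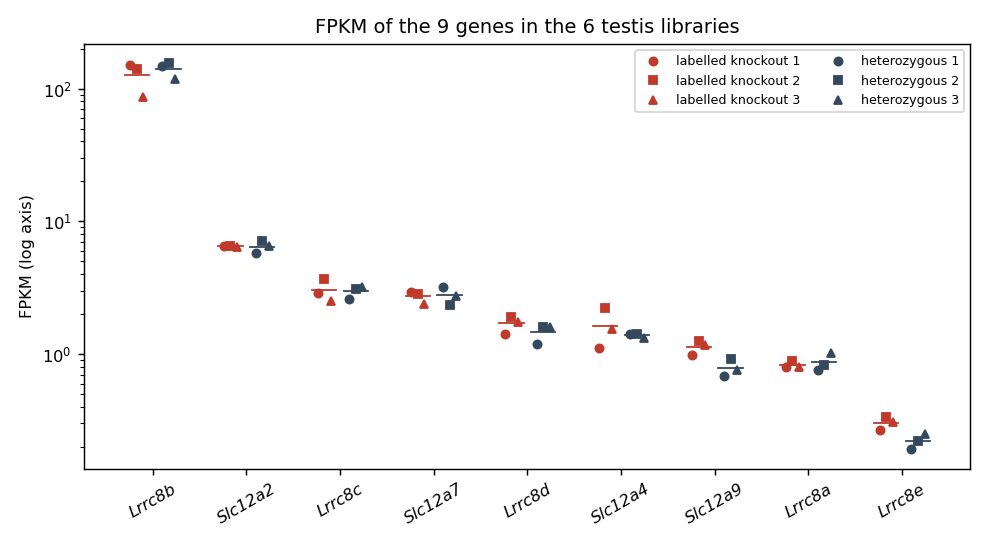
FPKM of the 9 genes on a log axis, ordered by mean, with each library as a point (libraries labelled knockout in red, left, and heterozygous libraries in dark blue, right) and the mean of 3 as a bar. Lrrc8b lies between 86.4 and 155 FPKM in every library, and the other 8 genes reach at most 7.06 FPKM.

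By library, Lrrc8b was at 151, 141 and 86.4 FPKM in the labelled knockout libraries and at 149, 155 and 118 FPKM in the heterozygous libraries. The groups overlapped, with library 3 labelled knockout lowest and heterozygous library 3 next to it. The means were 126 ± 34.7 FPKM in the labelled knockout libraries and 140.5 ± 20.1 FPKM in the heterozygous libraries (SD, n = 3 each). The log2(FPKM + 1) difference of -0.19 had a standard error of 0.23 and a 95% interval from -0.72 to 0.35 (limma with Benjamini-Hochberg adjustment over all genes, adjusted p = 0.879). Without library 3 labelled knockout the difference was 0.064. Lrrc8b therefore differed by less than the spread between libraries, and its sign rested on 1 library.

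Markers of late germ cells were low in some of the same libraries. The summed FPKM of 12 genes of elongated spermatids was 16150, 9477 and 8368 in the labelled knockout libraries and 19047, 15482 and 11129 in the heterozygous libraries, and 0 of 12 had a higher mean in the labelled knockout libraries. The 8 genes of round spermatids summed to 493, 381 and 365 FPKM in the labelled knockout libraries and to 506, 473 and 439 FPKM in the heterozygous libraries, with 1 of 8 means higher in the labelled knockout libraries. Library 3 labelled knockout was lowest in both sums, as it was for Lrrc8b. Library 2 labelled knockout, next lowest in both sums, was at 141 FPKM for Lrrc8b. The 8 spermatocyte genes summed to 422, 366 and 401 FPKM in the labelled knockout libraries. In the heterozygous libraries they summed to 417, 422 and 436 FPKM, and 1 of 8 means was higher in the labelled knockout libraries. Those of spermatogonia summed to 43.9, 47.0 and 62.5 FPKM in the labelled knockout and 47.9, 46.4 and 50.1 FPKM in the heterozygous libraries. Of these, 5 of 8 means were higher in the labelled knockout libraries. In bulk RNA fewer cells of a type and less RNA per cell cannot be told apart, and the part of cell composition in these values was not tested.

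The genes whose deviations across the 6 libraries lay nearest to those of Lrrc8b were Clmn, Atp1a4 and Actl11, at root mean square differences of 0.049, 0.055 and 0.055 on the log2(FPKM + 1) scale. The measure was taken over 843 protein-coding genes that varied at least as much as Lrrc8b, and its median was 0.37. Atp1a4, which encodes the sodium pump subunit of sperm, was at 226, 198 and 119 FPKM in the labelled knockout libraries and at 218, 226 and 181 FPKM in the heterozygous libraries. Clmn was at 39.4, 36.9 and 20.6 FPKM in the labelled knockout libraries and at 40.4, 39.3 and 29.8 FPKM in the heterozygous libraries. Each of these genes had its lowest value in library 3 labelled knockout and its next lowest in heterozygous library 3. All genes were measured in the same 6 libraries and share the depth and composition of each, so such likeness is a description only.

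Lrrc8a (ENSMUSG00000007476), the subunit every channel needs, lies on the plus strand of chromosome 2 from 30237715 to 30263790 and encodes 810 residues. Its deposited values were low: 0.798, 0.883 and 0.798 FPKM in the labelled knockout libraries and 0.762, 0.827 and 1.01 FPKM in the heterozygous libraries. The groups overlapped, with heterozygous library 1 lowest and heterozygous library 3 highest. The log2 difference was -0.03 (standard error 0.11, 95% interval -0.30 to 0.24, limma adjusted p = 0.958). Each value rested on 54 to 84 reads, so counting error alone was 13.6% at the lowest. The deposited FPKM of Lrrc8b was 189, 160 and 108 times that of Lrrc8a in the labelled knockout libraries and 195, 187 and 116 times in the heterozygous libraries.

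The level of Lrrc8a is, however, uncertain, since most of its exon bases are shared. In the GENCODE M21 annotation 68.3% of its 4308 exon bases also belong to exons of other genes. All 2430 coding bases of Lrrc8a lie in exons of Gm28035, a model on the same strand that runs on through Phyhd1 and has 96.8% of its own exon bases in common with other genes. Gm28035 was listed at 0 in all 6 libraries. The same was looked at over protein-coding entries and the main long non-coding types found in GENCODE M21, with other types left out. Those whose every exon base is shared with genes on the opposite strand only were at 0 in 142 of 142 cases. Those with every exon base shared on the same strand were at 0 in 142 of 168. Of 21719 entries of these types with no shared exon base 17.2% were at 0. How the authors assigned reads on shared bases is not stated in the labels. If such reads were given to neither gene, the length that counts is that of the unshared bases. Divided by the 1364 unshared bases alone, Lrrc8a was at 2.52, 2.79 and 2.52 FPKM in the labelled knockout libraries and at 2.41, 2.61 and 3.21 FPKM in the heterozygous libraries. On that length Lrrc8b was 59.8, 50.6 and 34.3 times as high as Lrrc8a in the labelled knockout libraries and 61.8, 59.3 and 36.7 times in the heterozygous libraries. The unshared bases form 1 run at the end of the last exon, from 30262427 to 30263790, with 0 coding bases, and how evenly reads covered the gene was not tested. The ratio of the group means of Lrrc8a, 0.952, does not depend on the length.

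**Figure D2:**
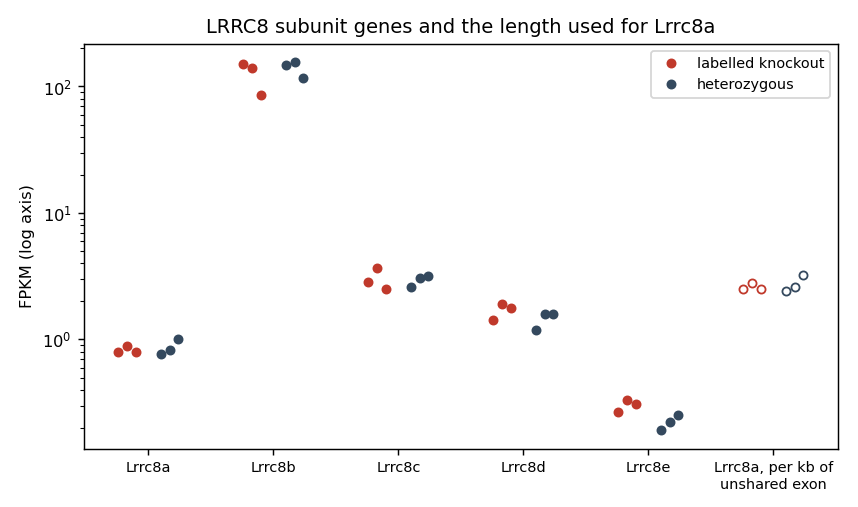
FPKM of the 5 LRRC8 subunit genes on a log axis, with each library as a point (labelled knockout left in red, heterozygous right in dark blue). Open points give Lrrc8a per kilobase of its 1364 unshared exon bases, where it lies between 2.41 and 3.21 FPKM, overlapping the range of Lrrc8c.

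Lrrc8c, an accessory subunit of 803 residues, was at 2.87, 3.68 and 2.50 FPKM in the labelled knockout libraries and at 2.62, 3.07 and 3.20 FPKM in the heterozygous libraries. Both its highest and its lowest value were in libraries labelled knockout, and the log2 difference was 0.01 (standard error 0.14, limma adjusted p = 0.988). Lrrc8d, the subunit known for letting organic osmolytes such as taurine pass, encodes 859 residues. It was at 1.43, 1.92 and 1.76 FPKM in the labelled knockout libraries and at 1.19, 1.59 and 1.60 FPKM in the heterozygous libraries. The groups overlapped through library 1 labelled knockout, and the log2 difference of 0.13 had a standard error of 0.13 and a 95% interval from -0.17 to 0.44 (limma adjusted p = 0.868). An antisense gene, Lrrc8dos, overlaps it, and 1.73% of Lrrc8d exon bases are shared with genes on the opposite strand.

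Lrrc8e (ENSMUSG00000046589), on chromosome 8 from 4226827 to 4237470, encodes an accessory subunit of 795 residues and was the lowest of the 9 genes. It was at 0.269, 0.335 and 0.310 FPKM in the labelled knockout libraries and at 0.191, 0.222 and 0.252 FPKM in the heterozygous libraries. All values of the labelled knockout libraries lay above all heterozygous values, as they did for 4.2% of the 26775 entries with a mean of at least 0.1 FPKM. The values rested on 13 to 25 reads each (21, 24 and 25 reads in the labelled knockout libraries, and 13, 17 and 20 in the heterozygous libraries), and the counting error of the lowest was 27.7%. Its mean was under the 0.5 FPKM needed for the test. With no such filter its log2 difference was 0.09 (standard error 0.06, limma adjusted p = 0.856). The pseudocount of 1 weighs heavily at this level: the ratio of the means was 1.37, and the log2 difference was 0.33 with a pseudocount of 0.1, 0.44 with 0.01 and 0.43 by limma-voom (limma adjusted p from 0.843 to 0.858). An exact two-sided permutation test gave p = 0.1, the smallest that 3 against 3 allows. No difference of Lrrc8e was thus detected by these tests, and how large a difference they could detect was not tested.

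As shares of the summed LRRC8 FPKM, Lrrc8b held 95.4% ± 1.21 in the labelled knockout libraries and 96.1% ± 0.939 in the heterozygous libraries (SD, n = 3 each). Lrrc8c held 2.35% ± 0.459 in the labelled knockout libraries and 2.07% ± 0.460 in the heterozygous libraries. Lrrc8d held 1.38% ± 0.506 and Lrrc8e 0.246% ± 0.0846 in the labelled knockout libraries, and 1.02% ± 0.262 and 0.155% ± 0.0424 in the heterozygous libraries. Without Lrrc8b the subunit genes summed to 5.85 ± 0.841 FPKM in the labelled knockout libraries and 5.51 ± 0.673 FPKM in the heterozygous libraries. These sums use the deposited Lrrc8a values.

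Of the cotransporters, Slc12a2 (ENSMUSG00000024597) was the highest. NKCC1, its product of 1206 residues, loads cells with chloride, and the gene lies on chromosome 18 from 57878678 to 57946821. Slc12a2 was at 6.46, 6.52 and 6.43 FPKM in the labelled knockout libraries and at 5.77, 7.06 and 6.52 FPKM in the heterozygous libraries. All 3 labelled knockout values fell inside the heterozygous range, and the log2 difference was 0.0075 (standard error 0.10, 95% interval -0.22 to 0.24, limma adjusted p = 0.989). That interval was the narrowest of the 8 genes tested, and 619 to 853 reads stood behind each value. The deposited length of Slc12a2 is 6520 bases, whereas its exons in GENCODE M21 cover 10920 bases. Over the longer length its level would be 3.86 FPKM in the mean of 6 libraries instead of 6.46 FPKM.

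Slc12a7 and Slc12a4 encode the potassium-chloride cotransporters KCC4 and KCC1, which release chloride from swollen cells. Slc12a7 (ENSMUSG00000017756, chromosome 13, 73733094 to 73816754) had 2.93, 2.84 and 2.40 FPKM in the labelled knockout libraries and 3.22, 2.35 and 2.74 FPKM in the heterozygous libraries. Its groups overlapped throughout, with a log2 difference of -0.02 and a standard error of 0.13 (limma adjusted p = 0.984). Slc12a4 (ENSMUSG00000017765, chromosome 8, minus strand, 105943590 to 105966097) had 1.11, 2.21 and 1.55 FPKM in the labelled knockout libraries and 1.41, 1.41 and 1.33 FPKM in the heterozygous libraries. The heterozygous libraries lay close together, and the labelled knockout libraries held both the lowest and the highest value, with SDs of 0.553 FPKM in the labelled knockout libraries and 0.0487 FPKM in the heterozygous libraries. The log2 difference of Slc12a4 was 0.12 (standard error 0.16, limma adjusted p = 0.887), and it was -0.038 without library 2 labelled knockout. Exon bases shared with the antisense gene Gm16156 make up 8.44% of Slc12a4. By deposited values, the ratio of Slc12a2 to the sum of Slc12a4 and Slc12a7 was 1.51 ± 0.188 in the labelled knockout libraries and 1.58 ± 0.315 in the heterozygous libraries (SD, n = 3 each). It depends on the length used for Slc12a2. Over the longer length the Slc12a2 means would be 3.86 FPKM in the labelled knockout and 3.85 FPKM in the heterozygous libraries, and the ratio lower. The matching means were 2.72 and 2.77 FPKM for Slc12a7, and 1.62 and 1.38 FPKM for Slc12a4.

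Slc12a9 (ENSMUSG00000037344) had the smallest unadjusted p of the 8 genes tested. It spans bases 137314558 to 137333597 of chromosome 5, minus strand, and encodes a 914-residue relative of the cotransporters. It was at 0.990, 1.26 and 1.16 FPKM in the labelled knockout libraries and at 0.678, 0.914 and 0.757 FPKM in the heterozygous libraries. The groups did not overlap, as was the case with the labelled knockout libraries above for 4.15% of the 19168 genes tested. The means were 1.14 ± 0.138 FPKM in the labelled knockout libraries and 0.783 ± 0.120 FPKM in the heterozygous libraries (SD, n = 3 each), a ratio of 1.46. On the log2(FPKM + 1) scale, which understates changes of low genes, the difference of 0.26 had a standard error of 0.12 and a 95% interval from -0.01 to 0.54. The unadjusted p was 0.0601, rank 953 of the 19168 genes, and the adjusted p 0.868 (limma). An exact two-sided permutation test gave p = 0.1, the smallest possible here. By limma-voom on the 56 to 114 reads behind each value (chosen once the data had been seen), the log2 difference was 0.53 (standard error 0.21, unadjusted p = 0.03, adjusted p = 0.858). With pseudocounts of 0.1 and 0.01 it was 0.49 and 0.54 (limma adjusted p = 0.864 and 0.861). Without library 1 labelled knockout it was 0.31 (limma, unadjusted p = 0.0481, adjusted p = 0.271). Slc12a9 thus did not pass in any of these fits.

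Markers of Sertoli cells and macrophages had higher means in the same direction, and those of other somatic cells differed among themselves. The 12 Sertoli genes summed to 572, 723 and 753 FPKM in the labelled knockout libraries and to 596, 576 and 614 FPKM in the heterozygous libraries, with 12 of 12 means higher in the labelled knockout libraries. The 8 macrophage genes summed to 33.1, 45.6 and 48.4 FPKM in the labelled knockout libraries and to 34.3, 35.7 and 36.1 FPKM in the heterozygous libraries, with 8 of 8 means higher. The Leydig sums were 369, 383 and 221 FPKM in the labelled knockout libraries and 337, 349 and 368 FPKM in the heterozygous libraries, with 2 of 8 means higher in the labelled knockout libraries. Of the peritubular myoid markers 6 of 7 means were higher, while their sums, of which 69.4% came from Actg2, ran from 140.4 to 189.7 FPKM in the labelled knockout libraries and from 163 to 191 FPKM in the heterozygous libraries. Library 1 labelled knockout had the lowest sum of all 6 libraries in the Sertoli and macrophage lists. In that library Slc12a9 was at 0.990 FPKM and Lrrc8e at 0.269 FPKM, above all 3 heterozygous libraries. The part of these cells in the difference was not tested. The patterns nearest to Slc12a9 among 5090 protein-coding genes were those of Otud5, Boc and Crtc1, at root mean square differences of 0.036, 0.040 and 0.040 (median 0.26). Otud5, a deubiquitinase, was at 4.87, 5.90 and 5.56 FPKM in the labelled knockout libraries and at 3.88, 4.56 and 3.98 FPKM in the heterozygous libraries.

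**Figure D3:**
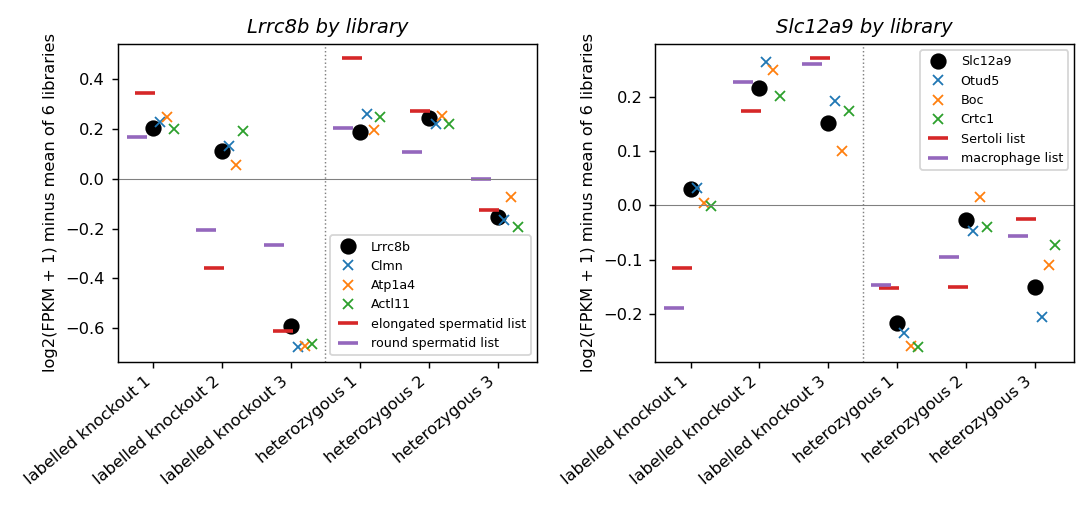
Deviation of log2(FPKM + 1) from the mean of 6 libraries for Lrrc8b (left) and Slc12a9 (right), as black points, with the 3 genes of nearest pattern as crosses and marker list levels as bars, libraries labelled knockout left of the dotted line. Lrrc8b is lowest in library 3 labelled knockout, and Slc12a9 is higher in every library labelled knockout than in any heterozygous one.

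As a group, 0 of the 8 tested genes passed at an adjusted p of 0.05 by limma, and 0 of 8 had an unadjusted p under that value. Over all 19168 genes 0 passed (0%), 741 had an unadjusted p under 0.05 (3.87%, with 1.48% higher and 2.38% lower in the labelled knockout libraries), and limma-voom called 1 of 20556 (0.00486%), which is not one of these genes. The count of genes with an unadjusted p under 0.05 was 3491 without library 1 labelled knockout and 473 without library 2 labelled knockout, with 0 passing in either case. Of the 8 differences 5 were positive and 3 negative, with a median of 0.0098 beside -0.0058 for all genes tested. The groups did not overlap for 2 of the 9 genes, Lrrc8e and Slc12a9, against 8.52% of the 26775 entries with a mean of at least 0.1 FPKM. Of the 8 tested it was 1, against 8.56% of the 19168 genes. Ordered by deposited level, Lrrc8b lay above Slc12a2 and Slc12a2 above Lrrc8c with no overlap of their libraries. Over its longer exon length Slc12a2 would lie between 3.45 and 4.22 FPKM, and Lrrc8c, which reached 3.68 FPKM, would overlap it. Lrrc8c and Slc12a7 overlapped, and Slc12a7 lay above Lrrc8d with no overlap. Lrrc8d and Slc12a4 overlapped, as did Slc12a9 and the deposited Lrrc8a. The ranges of Slc12a4 and Slc12a9 overlapped too, although Slc12a4 was the higher in 6 of 6 libraries. Lrrc8e lay below all of them.

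**Figure D4:**
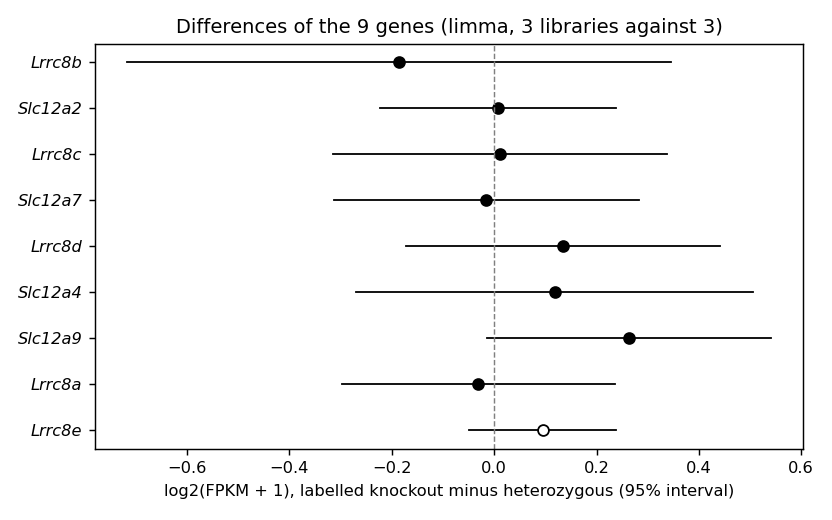
Difference in log2(FPKM + 1), libraries labelled knockout minus heterozygous libraries, with 95% intervals from limma for the 9 genes ordered by level. The open point marks Lrrc8e, taken from the fit with no filter on low values, and every interval crosses 0, that of Slc12a9 from -0.01 to 0.54.

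Other genes of volume regulation were taken from 4 lists of further SLC12 genes, WNK-pathway kinases and partners, other chloride channels, and osmolyte genes. Of 39 names 38 were in the table and 26 were tested. None passed in either direction by limma (0 higher, 0 lower, and 0 with an unadjusted p under 0.05), with adjusted p from 0.868 to 0.997. Differences were positive in 13 and negative in 13, with a median of 0.0021 beside -0.0058 for all genes tested. The largest positive difference was 0.33 and the largest negative -0.22, against a median standard error of 0.14 over all genes.

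Of the kinases and partners that act on the cotransporters 9 of 10 were tested. WNK kinases sense chloride and act through SPAK, encoded by Stk39, which phosphorylates NKCC1 to activate it and the potassium-chloride cotransporters to inhibit them. Stk39 was at 97.8 ± 7.47 FPKM in the labelled knockout libraries and 99.4 ± 4.13 FPKM in the heterozygous libraries. Wnk1 was at 34.3 ± 5.04 FPKM in the labelled knockout libraries and 31.7 ± 4.18 FPKM in the heterozygous libraries. Cul3, the ubiquitin ligase scaffold that helps degrade WNK kinases, was at 105 ± 13.4 FPKM in the labelled knockout libraries and 117 ± 5.91 FPKM in the heterozygous libraries. Wnk4 had the smallest p among higher values of these lists, at 3.45, 6.14 and 4.54 FPKM in the labelled knockout libraries and 3.61, 3.57 and 3.25 FPKM in the heterozygous libraries (log2 difference 0.33, standard error 0.17, limma adjusted p = 0.868). Of its exon bases 7.38% are shared with a gene on the opposite strand. Its highest value was in library 2 labelled knockout, as for Slc12a4, and library 1 labelled knockout lay inside the heterozygous range. Cab39l, a partner of these kinases, was at 10.5 ± 2.10 FPKM in the labelled knockout libraries and 12.2 ± 0.481 FPKM in the heterozygous libraries (log2 difference -0.22, standard error 0.13).

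Best1, Slc26a8 and Tmem206 had higher levels than every member but Lrrc8b. Best1, a bestrophin anion channel, was at 87.0 ± 12.04 FPKM in the labelled knockout libraries and 91.4 ± 2.27 FPKM in the heterozygous libraries. Slc26a8, a testis anion transporter needed for sperm function, was at 45.9 ± 2.06 FPKM in the labelled knockout libraries and 45.3 ± 1.94 FPKM in the heterozygous libraries. Tmem206, the proton-activated chloride channel, was at 16.2 ± 1.65 FPKM in the labelled knockout libraries and 14.7 ± 0.545 FPKM in the heterozygous libraries. Cftr, the cystic fibrosis chloride channel, was at 3.13, 3.62 and 3.23 FPKM in the labelled knockout libraries and at 3.77, 4.11 and 3.85 FPKM in the heterozygous libraries (log2 difference -0.18, standard error 0.10, limma adjusted p = 0.868). Its groups did not overlap, nor did those of the kinase partner Cab39, named after its values were seen, at 16.6, 16.1 and 15.2 FPKM in the labelled knockout libraries and 17.6, 16.8 and 17.8 FPKM in the heterozygous libraries. Of the 26 tested genes, the groups lay apart in 2 with the labelled knockout libraries below and in 0 with them above. Over all genes tested the share was 8.56% in either direction and 4.41% with the labelled knockout libraries below.

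Among further cotransporters, Slc12a5, which encodes the chloride extruder KCC2 known from neurons, was at 3.65 ± 0.709 FPKM in the labelled knockout libraries and 3.52 ± 0.252 FPKM in the heterozygous libraries. Slc12a8 was at 0.519 ± 0.0740 FPKM in the labelled knockout libraries and 0.512 ± 0.113 FPKM in the heterozygous libraries. Of the osmolyte genes, Akr1b3, the aldose reductase that makes sorbitol, was at 20.6 ± 2.26 FPKM in the labelled knockout libraries and 18.4 ± 0.772 FPKM in the heterozygous libraries (log2 difference 0.15, standard error 0.10). Slc6a6, the taurine transporter, was at 13.3 ± 1.78 FPKM in the labelled knockout libraries and 12.3 ± 0.919 FPKM in the heterozygous libraries. Nfat5, the transcription factor of the osmotic stress response, was at 4.64 ± 0.147 FPKM in the labelled knockout libraries and 4.31 ± 0.768 FPKM in the heterozygous libraries.

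**Figure D5:**
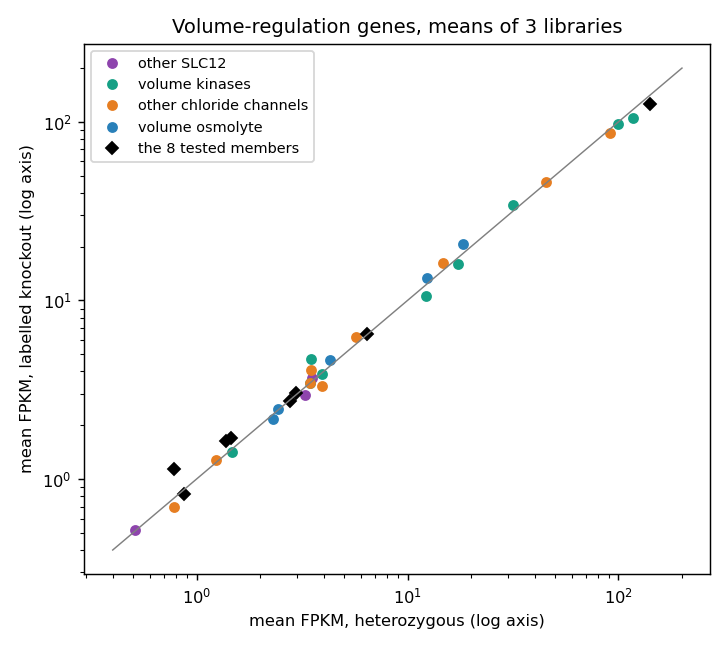
Mean FPKM of 3 libraries labelled knockout (vertical, log axis) against 3 heterozygous libraries (horizontal, log axis) for the 26 tested volume-regulation genes and the 8 tested members, with the line of equal levels. The genes lie along the line over the whole range of levels, and Slc12a9, at 1.14 FPKM in the labelled knockout libraries and 0.783 FPKM in the heterozygous libraries, lies above it.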

How the data were processed

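RNA of 6 testis libraries, 3 labelled Tmc7 knockout and 3 heterozygote, was extracted with Trizol and made into libraries with a SMARTER mRNA-Seq kit, per the labels' protocols. A single table from the authors gives FPKM for each gene, with gene length and position. GRCm38 and mm10 are named in the submitters' processing notes, whereas aligner, counter, annotation release and strand handling were not given in the sources used here. In each library FPKM times gene length rose in whole steps for 100% of values above 0 (tolerance 0.001 reads), and these steps were read as whole reads. Of 55711 IDs 54409 were in GENCODE M21, 98.01% of them with equal exon length.

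The comparison took log2(FPKM + 1) of genes averaging 0.5 FPKM or more. It used limma (version 3.58.1, R version 4.3.3) with a trend, group as the sole term and Benjamini-Hochberg adjustment over all genes. The procedure was tested on simulated data. Members, lists and alternatives were chosen with earlier results of these data known. Besides the members, named genes were the 3 highest of each list, the 2 of smallest p in each direction over the lists and the 3 nearest in pattern to Lrrc8b and to Slc12a9. A gene that this rule also names is not reported here. Genes that overlap these, and Cab39, were named outside that rule, after their values were seen. Counting error is the inverse square root of the reads and covers counting only. Sequence words were 31 bases long, on either strand.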

Additional observations from a re-analysis of the deposited data

How the results depend on the processing

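No gene of the family passed under any of the 14 alternatives to the fit (pseudocounts of 0.1 and 0.01, no filter, a mean of at least 2 FPKM, quantile and TMM scaling, the replicate number as a block, each library left out, and limma-voom), nor did any of the other volume-regulation genes. The alternative with a mean of at least 2 FPKM left Lrrc8a, Lrrc8d, Lrrc8e, Slc12a4 and Slc12a9 untested, so they could not pass in it. Over all genes the count was 0 in each alternative except limma-voom on the recovered reads, added after the data were seen, with 1 lower. The edgeR and DESeq2 fits planned for those reads were not run. Apart from a common factor, deposited values stood at 0.992 to 1.009 times the TMM-scaled values in each library. The TMM alternative is thus nearly the main fit and adds little to it. With the replicate block 0 genes passed and 1411 had an unadjusted p under 0.05, against 473 to 3491 with 1 library left out and 741 with none left out. Deviations of same-numbered libraries correlated across genes at 0.29, 0.04 and 0.20, and those of differently numbered libraries at -0.32 to 0.17. Library 2 labelled knockout was nearer to heterozygous library 3 (0.17) than to heterozygous library 2 (0.04). The labels do not say that equal numbers pair samples, and the main fit did not pair them. Whether they do was not tested.

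Slc12a9, Lrrc8d and Lrrc8e kept a positive difference in all alternatives that gave them a value, Slc12a9 from 0.22 to 0.54 with adjusted p from 0.271 to 1. With each library left out in turn, differences ran from -0.072 (without heterozygous library 1) to 0.025 (without heterozygous library 3) for Lrrc8a, from -0.33 to 0.064 (without library 3 labelled knockout) for Lrrc8b, from -0.10 (without library 2 labelled knockout) to 0.11 for Lrrc8c, where it was also -0.051 without heterozygous library 1, from -0.060 (without heterozygous library 1) to 0.066 for Slc12a2, from -0.038 (without library 2 labelled knockout) to 0.26 for Slc12a4 and from -0.097 to 0.068 (without heterozygous library 1) for Slc12a7, where it was also 0.048 without library 3 labelled knockout. Signs also turned with limma-voom for Lrrc8c (-0.0039) and Slc12a2 (-4.3e-05), and with quantile normalization for Slc12a7 (0.0048); the cause was not tested. Depth limits Lrrc8e, Lrrc8a and Slc12a9 most, with 13, 54 and 56 reads in their lowest libraries.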

Other observations

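Each of the 6 libraries held the lowest or the highest value of some of the 9 genes, but unevenly. Library 2 labelled knockout and heterozygous library 3 held no lowest value, and libraries 1 and 3 labelled knockout held no highest value. Heterozygous library 1 held the lowest value for 5 of the 9 genes, Lrrc8a, Lrrc8d, Lrrc8e, Slc12a2 and Slc12a9, while over 26775 entries with a mean of at least 0.1 FPKM it held the lowest value in 16.9%. Library 2 labelled knockout held the highest value for 5 of the 9, Lrrc8c, Lrrc8d, Lrrc8e, Slc12a4 and Slc12a9, against 21.3% of the entries. The same library had 0.335% of its reads in entries for small or ribosomal RNAs, where the libraries labelled knockout 1 and 3 had 0.0949% and 0.281% and the heterozygous libraries 0.0997% to 0.105%.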
